A study of Nicotiana tabacum with 12 samples.

Results

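The TWTR libraries were compared with the WTR libraries, 3 root RNA-seq libraries against 3, in a tobacco (Nicotiana tabacum) series of 12 libraries. The members are the gene models that averaged 1 FPKM or more across those 6 libraries, 19772 of the 25273 models in the deposited table. FPKM is the number of sequenced fragments scaled to the length of the transcript and to the size of the library. The series concerns a mutant of NtLHT1, and its remaining libraries are coded TCR and CR, 3 of each. The codes are not spelled out in the sources used here. Every library carries the same protocol, which places the NtLHT1 mutant in hydroponic LN solution for 15 days, so neither a genotype nor a nitrogen level can be attached to TWTR or WTR. Plant age, cultivar and the number of plants behind a library were not given. The p-values therefore reflect library-to-library spread alone, part or all of which may be technical.

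LHT1 (lysine histidine transporter) proteins carry amino acids across the plasma membrane into plant cells, and in roots they are known for taking up amino acids from the medium. Plants short of nitrogen are known to change the root levels of transcripts for nitrate, ammonium and amino acid transport and for nitrogen assimilation. The identifiers in the table are not paired with gene names, and 0 of them were found in the RefSeq gene table of this species. No member could therefore be given a role or a sequence, NtLHT1 was not analysed here, and neither the labels nor the root identity of the tissue could be checked by marker genes. At most 2 models that rose and 2 that fell are identified below, and all others are described as groups.

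The 6 libraries were close in depth. Total fragments are not recorded in FPKM and absolute depth is unknown, but the commonest ratio between low values gave relative depths, with WTR replicate 1 taken as 1, of 0.981, 1.16 and 0.972 for TWTR replicates 1 to 3 and 1.05 and 1.16 for WTR replicates 2 and 3. The libraries of TWTR correlated at 0.972 to 0.975 and those of WTR at 0.977 to 0.979 on log2(FPKM + 1), against 0.941 to 0.947 between TWTR and WTR libraries, over the 19772 models, which are not independent. Models reaching 1 FPKM numbered 19531, 19625 and 19598 in TWTR replicates 1 to 3 and 19399, 19442 and 19490 in WTR replicates 1 to 3. Every TWTR library thus lay above every WTR library. The difference in the means was 141 models (exact two-sided permutation p 0.1, n = 3 each, the smallest p that 3 libraries against 3 can give). The number of models at 0 did not separate the groups. It ran from 3101 to 3342 in TWTR and from 3191 to 3405 in WTR (exact two-sided permutation p 0.7, n = 3 each). Both counts were made on the deposited FPKM without rescaling.

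TWTR and WTR roots differed in 6008 of the 19772 models tested (30.4%) at an adjusted p under 0.05 (limma on log2(FPKM + 1), Benjamini-Hochberg over all models tested). TWTR was higher in 3491 models (17.7%) and lower in 2517 (12.7%). In bulk roots, fewer cells of a type and less RNA per cell cannot be told apart. The median log2 difference over all models tested was 0.04, against 0.58 among the models that rose and -0.54 among those that fell. Of the models called, 58.1% were higher in TWTR, but 51.1% were with median-of-ratios scaling, in 3068 higher and 2934 lower models.

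Most of the changes were small. Of the models that rose, 50.5% did so by under 1.5-fold, and of those that fell, 54.5%. On the log2(FPKM + 1) scale 744 models (3.76%) rose at least to a doubling and 482 (2.44%) fell at least to a halving. Rises of 4-fold to under 8-fold were found in 67 models and falls of that size also in 67. A change of 8-fold or more was found in 11 models that rose and 12 that fell. With a pseudocount of 5 in place of 1, 366 models reached a doubling and 292 a halving, since a larger pseudocount shrinks the differences of low models.

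**Figure D1:**
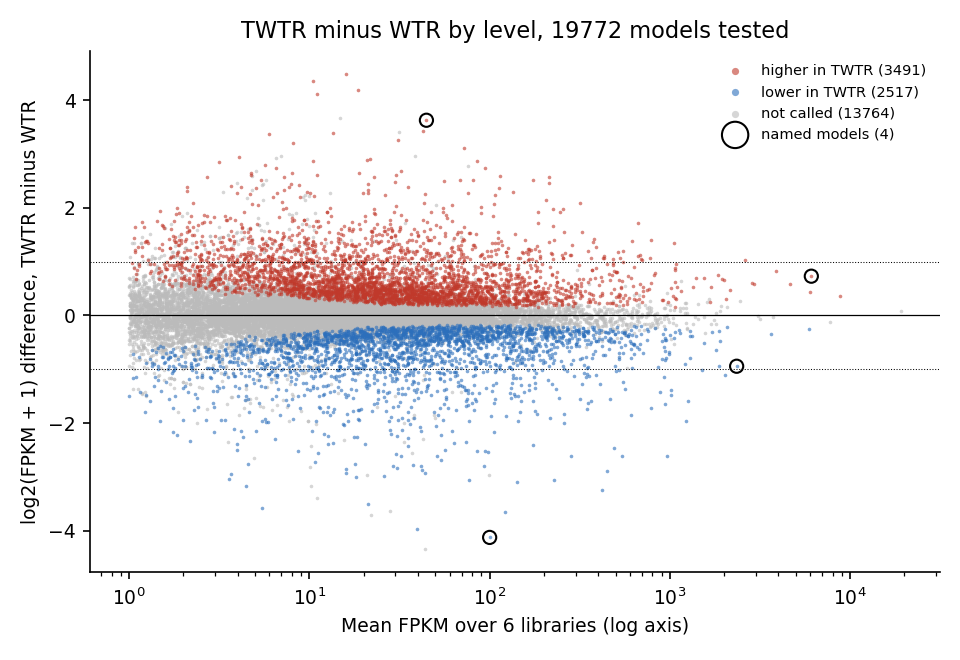
Difference in log2(FPKM + 1), TWTR minus WTR, against the mean FPKM over the 6 libraries on a log axis, 1 dot per model tested. Red dots are the 3491 models higher in TWTR, blue dots the 2517 lower, and grey dots were not called. Dotted lines mark a doubling and a halving, and circles mark the 4 named models. The share of models called grew with their level.

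The models chosen by log2 difference were taken from those called with no overlap between the groups, with no library at 0 and with both group means at 5 FPKM or above. Among these, Nitab4.5_0000028g0320 had the largest rise. It stood at 79.39, 80.93 and 89.86 FPKM in TWTR replicates 1 to 3 and at 5.98, 4.96 and 6.66 FPKM in WTR replicates 1 to 3. All TWTR libraries were far above all WTR libraries, and within each group the values lay close together. The means of 83.4 ± 5.65 FPKM in TWTR and 5.87 ± 0.856 FPKM in WTR (SD, n = 3 each) were 14.2-fold apart. The log2 difference was 3.62 (SE 0.108, limma adjusted p 1.81e-06).

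Nitab4.5_0000712g0280 had the largest fall by the same rule. It stood at 8.79, 12.63 and 8.81 FPKM in TWTR, against 192.9, 169.71 and 207.57 FPKM in WTR. The mean was 10.1 ± 2.21 FPKM in TWTR and 190 ± 19.1 FPKM in WTR (SD, n = 3 each), with a log2 difference of -4.12 (SE 0.143, limma adjusted p 2.87e-06). The model with the preceding gene number on the same scaffold fell with it, to 3.93 ± 1.11 FPKM in TWTR, against 75.2 ± 5.51 FPKM in WTR (SD, n = 3 each). Its log2 difference was -3.97, with an SE of 0.155 and an adjusted p from limma of 3.83e-06. Reads shared by near-identical neighbouring copies could move such a pair together, and this was not tested. Of the other 11 models tested on that scaffold, the log2 differences ran from -0.38 to 0.23, and 1 passed the test, with a log2 difference of -0.35 (limma adjusted p 0.0309).

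The next pair was chosen by the change of the mean in FPKM, which picks abundant models. Nitab4.5_0001615g0140 gained the most. It stood at 8001.84, 7194.17 and 7596.58 FPKM in TWTR, against 4783.96, 4543.58 and 4415.13 FPKM in WTR. The mean was 7598 ± 403.8 FPKM in TWTR and 4581 ± 187.2 FPKM in WTR (SD, n = 3 each), a gain of 3017 FPKM and a log2 difference of 0.73 (SE 0.0605, limma adjusted p 0.000103). This 1 model held 0.677% of the FPKM sum in TWTR and 0.411% in WTR.

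Nitab4.5_0004646g0080 lost the most. It stood at 1728.98, 1519.59 and 1561.28 FPKM in TWTR, against 3407.39, 2782.13 and 3077 FPKM in WTR. The highest TWTR library was well below the lowest WTR library. The mean was 1603 ± 110.8 FPKM in TWTR and 3089 ± 312.8 FPKM in WTR (SD, n = 3 each), a change of -1486 FPKM and a log2 difference of -0.94 (SE 0.0867, limma adjusted p 0.000174). All 4 named models kept their direction and their call under each of the 16 alternative settings of the comparison.

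**Figure D2:**
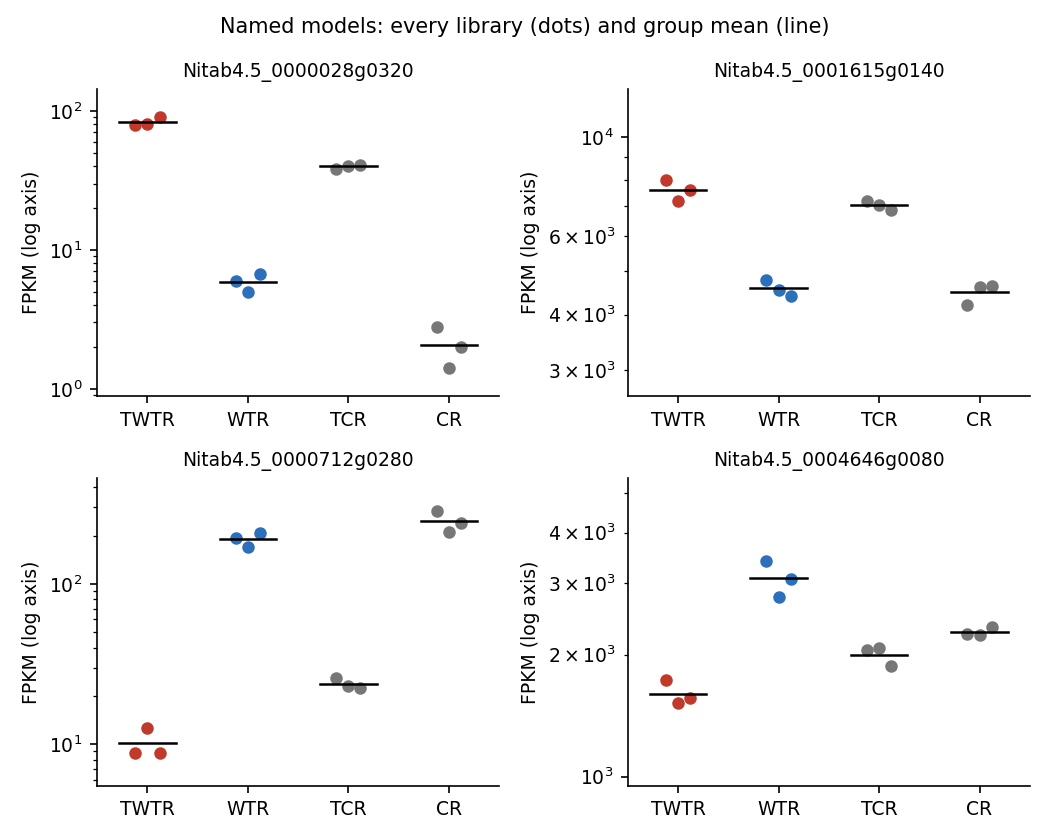
FPKM of the 4 named models on log axes, in every library (dots) with the group mean (line), in TWTR, WTR, TCR and CR. Nitab4.5_0000028g0320 and Nitab4.5_0001615g0140 are higher in TWTR than in WTR, and the other pair is lower, with no overlap of TWTR and WTR libraries in any of the 4 panels.

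Beyond the named models, the 20 models with the largest rises had log2 differences of 2.73 to 4.48. Their means in TWTR ran from 6.28 to 164 FPKM, with a median of 28.5 FPKM, and in WTR from 0 to 24.2 FPKM. A zero in at least 1 WTR library was listed for 6 of them, and 2 were at 0 in all 3. The 20 models with the largest falls had log2 differences of 2.82 to 4.12 in size. Their means ran from 0 to 105.8 FPKM in TWTR and from 7.2 to 789 FPKM in WTR, with a median of 64.4 FPKM in WTR, and 4 were at 0 in all TWTR libraries.

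Some models were detected in one group alone. At 1 FPKM or more in every TWTR library and 0 in every WTR library stood 10 models, with values up to 31.07 FPKM, and 8 of the 10 entered the test and passed it. At 0 in every TWTR library and at 1 FPKM or more in every WTR library stood 13 models. Their values ran up to 14.25 FPKM, and 9 of them entered the test and passed it. Over all models tested, 30.4% passed. The passes in both directions were built in and lend no support, because the models were chosen by a gap between the same libraries. They also met the filter only through the group where they were high. With a limit of 5 FPKM in place of 1 FPKM, 2 models remained in each direction. No fold is given for a group at 0. Each of these models was above 0 in at least 1 TCR or CR library, but few were in all of them. Of the 10 models, 4 were above 0 in all TCR libraries and 3 in all CR libraries. Of the 13 models, 1 was above 0 in all TCR libraries and 3 in all CR libraries.

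The share of models called grew with their level, as did the precision. From 1 to 5 FPKM, 15.1% of 4246 models were called, at a median SE of 0.206 on the log2 scale. From 5 to 20 FPKM the share was 26.1% of 6490 models, from 20 to 100 FPKM 37.0% of 6839 models, and at 100 FPKM and more 52.0% of 2197 models, where the median SE was 0.0694. The share that rose to a doubling varied less, from 3.30% to 4.24%, with 4.24% in the lowest class and 4.14% in the highest. The share that fell to a halving grew with level, from 1.95% in the lowest class to 3.96% in the highest.

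The balance of directions shifted along the same scale. Of the models called from 1 to 5 FPKM, 65.7% were higher in TWTR (422 higher, 220 lower). At 100 FPKM and more, 48.1% were higher (549 higher, 593 lower). With median-of-ratios scaling these shares were 61.7% and 42.0%. With quantile normalization, which forces the same distribution on every library, they were 53.8% and 50.6%.

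**Figure D3:**
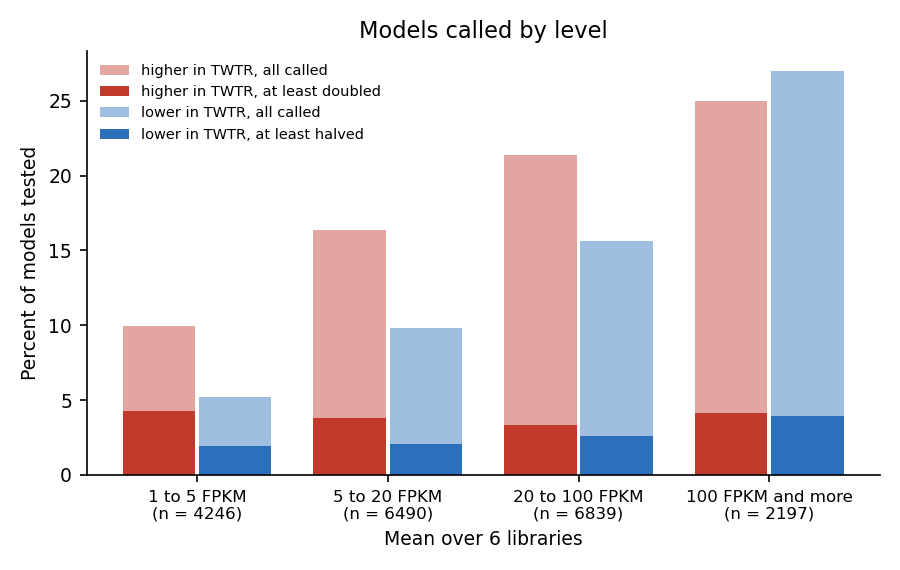
Percent of models tested that were called, in 4 classes of mean FPKM, with red bars for models higher in TWTR and blue bars for models lower in TWTR; the dark part of a bar holds those at least doubled or halved. The called share grows from the class of 1 to 5 FPKM to that of 100 FPKM and more, while the dark part stays between 1.95% and 4.24%.

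Among the 100 most abundant models, all at a mean of 985 FPKM or more, 30 rose and 28 fell in TWTR, of which 2 reached a doubling and 6 a halving. Over all models tested 17.7% rose and 12.7% fell, and at 100 FPKM and more 52.0% were called, so the count among these 100 is near that of their level. Median-of-ratios scaling gave 28 that rose and 31 that fell, and quantile normalization 40 and 27. The 10 most abundant models held 6.50%, 6.82% and 6.65% of the FPKM sum in TWTR replicates 1 to 3, against 5.50%, 5.72% and 6.39% in WTR replicates 1 to 3. All 3 TWTR libraries lay above the WTR libraries, and WTR replicate 3 lay close to them. The mean was 6.66% ± 0.162 in TWTR and 5.87% ± 0.460 in WTR (SD; exact two-sided permutation p 0.1, n = 3 each). Of these 10 models 5 rose, 2 fell and 3 did not pass, with log2 differences from -0.35 to 0.82.

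The classes also give how much of the transcript pool was involved. The classes were set by this same comparison, so their shares are a description without a test. The 744 models at least doubled held 5.08% ± 0.118 of the FPKM sum in TWTR and 1.99% ± 0.0321 in WTR (SD, n = 3 each). The 2747 models that rose by less held 24.3% ± 0.285 in TWTR and 17.3% ± 0.102 in WTR. The 2035 models that fell by less than a halving held 16.0% ± 0.0933 in TWTR and 22.3% ± 0.19 in WTR, and the 482 at least halved held 1.85% ± 0.0664 in TWTR and 5.39% ± 0.061 in WTR. The classes with changes under a doubling or a halving thus moved more of the pool, and they also held more models. The 13764 models not called held 52.6% ± 0.391 in TWTR and 52.9% ± 0.0446 in WTR.

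**Figure D4:**
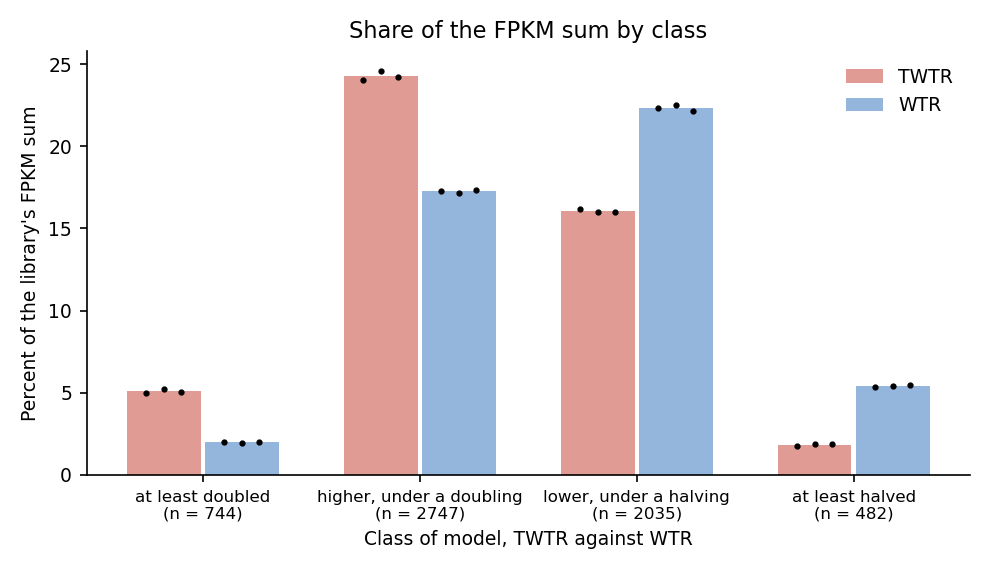
Percent of each library's FPKM sum held by models of 4 classes, with bars for the mean of 3 libraries, red for TWTR and blue for WTR, and black dots for the libraries. The 2747 models that rose by less than a doubling hold 24.3% in TWTR and 17.3% in WTR, more than any other class shown holds in TWTR.

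The gain and the loss were both held unevenly by the models called. The models that rose gained 114575 FPKM in all between the group means, and the 10 largest gains made up 14.8% of that. The models that fell lost 108185 FPKM, and the 10 largest losses made up 11.3%. The 100 largest made up 42.7% of the gain and 42.7% of the loss. To reach 50% of the sum took 157 of the 3491 models that rose and 148 of the 2517 that fell.

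The same models were then followed in the libraries that did not enter the comparison, TCR and CR, in a separate limma fit of those 6 libraries. Over the 19439 models tested in both fits, 19% were higher and 21.7% lower in TCR than in CR. Of the 723 models at least doubled in TWTR, 379 (52.4%) were higher in TCR and 113 (15.6%) lower, and their median log2 difference, TCR minus CR, was 0.43. Of the 477 models at least halved in TWTR, 348 (73.0%) were lower in TCR and 39 (8.18%) higher, with a median of -1.01. Over all models tested in both fits the median was -0.01.

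For the strongest changes the directions were unequal. Of 77 models at least 4-fold lower in TWTR, 64 were lower in TCR and 2 higher. Of 76 models at least 4-fold higher in TWTR, 45 were higher in TCR and 15 lower. With a pseudocount of 5 in both fits, 365 models were doubled in TWTR, of which 65.8% were higher and 11.5% lower in TCR; 291 were halved, of which 78.4% were lower and 9.28% higher. Among the 20 largest rises, 9 were higher and 6 lower in TCR, and among the 20 largest falls, 16 were lower and 0 higher. Whether the rises and the falls differ in this was not tested.

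**Figure D5:**
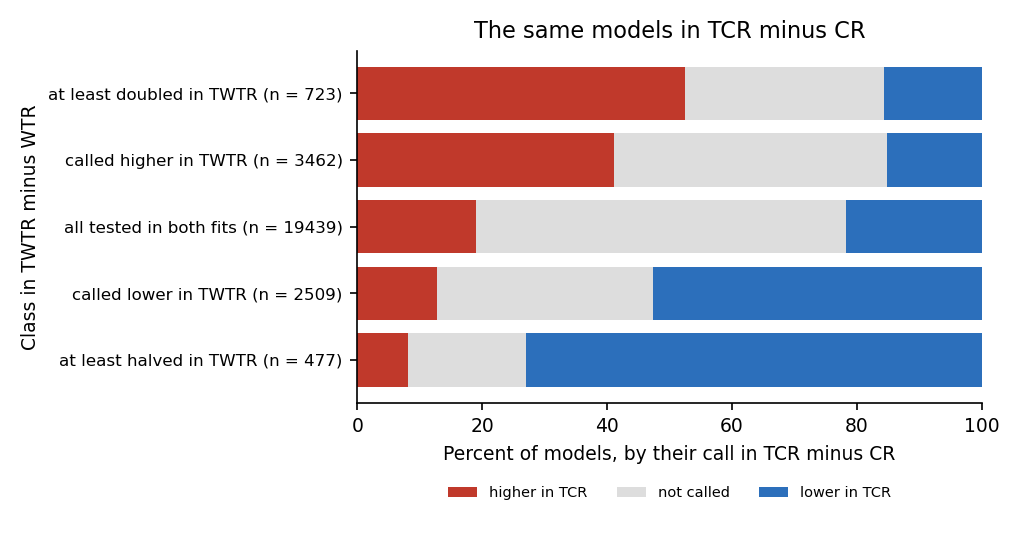
Models grouped by their call in TWTR minus WTR, with each bar divided by the call of the same models in TCR minus CR (red higher in TCR, grey not called, blue lower in TCR), in percent of the models tested in both fits. Models at least doubled in TWTR are 52.4% higher in TCR, and models at least halved in TWTR are 73.0% lower, against 19% and 21.7% of all models.

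Levels in the 4 groups show where the models sat. The median model among those at least doubled had 21.3 FPKM in TWTR and 7.02 FPKM in WTR, with 16.2 FPKM in TCR and 12.7 FPKM in CR. Among those at least halved, the median was 11.6 FPKM in TWTR and 36.8 FPKM in WTR, with 15.6 FPKM in TCR and 34.9 FPKM in CR. In both classes the TCR and CR medians lay between those of TWTR and WTR. That order is partly built in, because the classes were chosen by the gap between TWTR and WTR. The gap between TCR and CR was wider in the falling class.

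The difference of the differences, TCR minus CR less TWTR minus WTR, was tested in a fit of all 12 libraries and passed in 29.2% of the 19772 models. It passed in 72.4% of the 744 models at least doubled in TWTR and in 49.8% of the 482 at least halved. These shares are partly built in, because the models were chosen by a difference that enters the interaction with opposite sign.

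The named models were measured in TCR and CR too. Nitab4.5_0000028g0320 was at 38.44, 39.99 and 41.13 FPKM in TCR and at 2.79, 1.41 and 2 FPKM in CR, so it rose there as well, with a log2 difference of 3.76 (SE 0.161, limma adjusted p 3.04e-06). Nitab4.5_0001615g0140 averaged 7038 ± 156.3 FPKM in TCR and 4489 ± 251 FPKM in CR (SD, n = 3 each; log2 difference 0.65, limma adjusted p 8.02e-05). The named models were chosen by their difference between TWTR and WTR, which enters the interaction with opposite sign, so their interactions are given as a description without a test. The value was 0.13 (SE 0.204) for Nitab4.5_0000028g0320, and -0.35 with a pseudocount of 5. For Nitab4.5_0001615g0140 it was -0.08 (SE 0.0786).

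Nitab4.5_0000712g0280 averaged 23.8 ± 1.85 FPKM in TCR and 245 ± 37.1 FPKM in CR (SD, n = 3 each; log2 difference -3.31, limma adjusted p 1.38e-06). Nitab4.5_0004646g0080 averaged 2001 ± 111.8 FPKM in TCR and 2278 ± 58.2 FPKM in CR (SD, n = 3 each), a log2 difference of -0.19 (SE 0.0555, limma adjusted p 0.0296). The interaction was 0.82 (SE 0.199) for Nitab4.5_0000712g0280 and 0.75 (SE 0.107) for Nitab4.5_0004646g0080, and the choice of these models for their fall in TWTR favours such positive values.

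The number at the end of an identifier orders the models along a scaffold, and it is the only position the table gives. There were 11642 pairs of tested models with consecutive gene numbers. Both members rose in 408 pairs, both fell in 224, and they went opposite ways in 476. Counted over the models in these pairs, a model that rose had a neighbour that rose in 20.1% of cases, against 17.4% of all models in the pairs. A model that fell had a neighbour that fell in 15.0% of cases, against 12.8% of all.

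Neighbours were also counted for the large changes. A model at least doubled had a neighbour at least doubled in 9.55% of cases, against 3.24% of all models in these pairs. At 2 gene numbers apart the shares were 5.51% and 3.24%, and at 5 they were 3.98% and 3.52%. A model at least halved had a neighbour at least halved in 4.85% of cases, against 2.30% of all. Here the shares were 5.82% and 2.39% at 2 gene numbers apart and 4.12% and 2.38% at 5. For all models that rose they were still 19.5% and 17.4% at 5 gene numbers apart, and for all that fell 15.1% and 12.8%. Of the 744 models at least doubled, 70 lay in 34 runs of consecutive numbers, the longest of 3 models, and of the 482 at least halved, 26 lay in 13 runs, each of 2 models. No expected number of models in runs was computed. Among large changes at 5 gene numbers apart, 10 pairs rose together, 7 fell together and 23 went opposite ways. Reads shared between neighbouring copies were not tested here either, and no test of any excess was made.

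The spread within the groups limits what could be called. The median SD between libraries on the log2 scale was 0.134 in TWTR and 0.11 in WTR. A log2 difference of at least 1 in size without a call was found in 242 models, 138 higher and 104 lower in TWTR. Of these, 157 were at 0 in 1 library and at 5 FPKM or more in another of the same group. This pattern was found in 258 tested models in all, 0 of which were called (limma, adjusted p under 0.05). The libraries of TWTR and WTR did not overlap, with TWTR higher in 5202 models (26.3% of those tested) and lower in 3854 (19.5%), and 3052 of these models were not called.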

How the data were processed

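Root messenger RNA of 12 tobacco libraries was sequenced on a DNBSEQ-T7 instrument, cleaned with fastp, aligned with STAR and assembled with StringTie2, per the labels' protocols. The values are the authors' deposited FPKM per gene model, per the file headers. The genome build, the program that computed FPKM and all versions are not given in the sources used here. FPKM sums were 1099061 to 1134916 per library in TWTR and WTR.

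Models averaging 1 FPKM or more across the 6 libraries were tested on log2(FPKM + 1) with limma 3.58.1 in R 4.3.3 (2 group means of these 6 libraries, trend and robust options, Benjamini-Hochberg, threshold 0.05). The models just inside and just outside the limit had means of 1 and 0.998 FPKM, and 5501 models were not tested, 1376 of them at 0 in all 6 libraries. TCR and CR were fitted apart, and the interaction in 1 fit of 12 libraries. Submitters name DESeq2, which needs counts and was not used. The members, lists and naming rules were chosen with earlier results of these data known. The rule named, among models called without overlap and without a zero, the largest log2 rise and fall at 5 FPKM or more in both groups, and the largest gain and loss of mean FPKM. Alternatives covered pseudocount, filter, scaling, fit, replicate block and leaving out each library.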

Additional observations from a re-analysis of the deposited data

Results flagged for a closer look

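For 2 of the 4 named models the difference between TCR and CR departed from that between TWTR and WTR in a fit of all 12 libraries. The interaction was 0.82 on the log2 scale for Nitab4.5_0000712g0280 (SE 0.199) and 0.75 for Nitab4.5_0004646g0080 (SE 0.107). Both models were chosen for their fall between TWTR and WTR, the same values that enter the interaction, so the choice favours a positive value and no p is given in support. Under 17 other settings, chosen after the data were seen, the values ran from 0.59 to 0.97 for the first model and from 0.63 to 0.83 for the second. Groups of 3 libraries are too small for a check of single libraries standing apart.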

How the results depend on the processing

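Over the 16 settings, models called higher numbered 2652 to 4058 and lower 1887 to 2958, each within 1.5 times the value reported, and no call shared with the reported fit changed sign. The fit of all 12 libraries gave 4058 and 2958. Leaving out 1 library gave 2652 to 3124 higher, 1887 to 2393 lower, 708 to 764 at least doubled and 474 to 522 at least halved. Calls that held in every such fit made up 65.2% of the higher, 65.0% of the lower, 91.4% of the doubled and 94.0% of the halved models. A pseudocount of 5 gave 366 at least doubled and 292 at least halved; of these, 240 of the doubled models were higher and 42 lower in TCR, and 228 of the halved models were lower. A limit of 5 FPKM left 2 models at 0 in every WTR and 2 at 0 in every TWTR library. At 5 gene numbers apart 242 pairs rose and 138 fell together; of neighbours at least doubled or halved, 36 pairs rose, 13 fell and 12 went opposite ways. Fewer pairs enter at that distance and size. The interaction of Nitab4.5_0000028g0320 was -0.35 with a pseudocount of 5 and ranged from -0.027 (without CR replicate 2) to 0.30 (without CR replicate 1) on leaving out each of the 12 libraries in turn. With the replicate number as a block, 3194 models were higher and 2323 lower. Deviations of same-numbered libraries correlated at 0.0671, 0.0321 and -0.00192. TWTR replicate 2 correlated best with WTR replicate 3 (0.0537). With so few libraries these values cannot settle whether the replicate numbers pair libraries, and the labels do not say. The median log2 difference of all models was 0.04 in the reported fit. Median-of-ratios scaling moved it by -0.04 and quantile normalization by -0.05. The share of calls that were higher in TWTR was then 51.1% and 51.2%, against 58.1%, so the excess of rises depended on the scaling. Absolute depth is unknown, so no counting intervals were computed.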
